A study of Mus musculus with 15 samples.

Results

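The colony stimulating factors and their receptors were examined in tumor-associated macrophages (TAMs) as a family of 8 genes, which were picked by symbol from a table of 55335 mouse genes. The ligand genes were Csf1, Csf2 and Csf3, and the receptor genes were Csf1r, Csf2ra, Csf2rb, Csf2rb2 and Csf3r. RNA-seq was performed on 15 samples of TAMs, 5 from each of 3 groups of orthotopic liver tumors. The tumors grew from Hepa1-6 cells, a mouse hepatoma line, which carried a luciferase gene and were injected into the liver of C57BL/6 mice about 3 weeks before the tissue was taken. The control group held tumors of cells with a control lentivirus (genotype label control HCC), and the other groups held tumors of cells with a lentivirus for miR-144 or for miR-451a. No treatment of the mice is named, and the samples of all 3 groups are labelled untreated. The miRNAs were overexpressed in the tumor cells and not in the macrophages that were sequenced, all tumors came from 1 cell line, and the age of the mice was not given in the sources used here. TAMs were defined in the study by CD11b and F4/80, so the levels of Itgam and Adgre1, which encode these proteins, partly reflect the sort. Nothing in the labels says that the 5 samples of a group came from 5 mice, so the p-values measure the spread between these samples only.

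Colony stimulating factors are secreted proteins that drive the survival, growth and differentiation of myeloid cells. CSF1, also called M-CSF, acts through the receptor tyrosine kinase CSF1R, which also binds interleukin 34, and nearly all tissue macrophages depend on it. CSF2, or GM-CSF, acts through a ligand-binding α chain, encoded by Csf2ra, and a signalling β chain, encoded by Csf2rb, which is shared with interleukin 3 and interleukin 5 and activates JAK2 and STAT5. The mouse has a further β chain gene, Csf2rb2, whose product works only with the interleukin 3 receptor α chain. CSF3, or G-CSF, acts through CSF3R and is best known for its action on neutrophils.

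Sequences were taken from RefSeq tables of GRCm38.p6 for the overexpressed miRNAs, since they define the groups, with the seed (bases 2 to 8) in capitals. The hairpins of both miRNAs lie close together on chromosome 11, and the 3 mature sequences have 3 different seeds.
mmu-miR-144-5p: gGAUAUCAucauauacuguaagu
mmu-miR-144-3p: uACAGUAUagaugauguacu
mmu-miR-451a: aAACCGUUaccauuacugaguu

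The β chain genes Csf2rb and Csf2rb2 were near copies of each other, which bears on every value of this pair. In the GENCODE M21 annotation of GRCm38, Csf2rb is on chromosome 15 (78325752 to 78353847, plus strand), and Csf2rb2 is beside it (78282507 to 78305721, minus strand). Their coding sequences, of 2691 and 2637 bases, were 95.2% identical over 2631 aligned bases. Of all 50-base stretches in the longest transcript, 18.4% in Csf2rb and 19.4% in Csf2rb2 also occurred in transcripts of another gene, mostly of the other member of the pair. The longest identical run was 242 bases, at bases 2083 to 2324 of both coding sequences, and a read inside it could belong to either gene.
Run shared by Csf2rb and Csf2rb2: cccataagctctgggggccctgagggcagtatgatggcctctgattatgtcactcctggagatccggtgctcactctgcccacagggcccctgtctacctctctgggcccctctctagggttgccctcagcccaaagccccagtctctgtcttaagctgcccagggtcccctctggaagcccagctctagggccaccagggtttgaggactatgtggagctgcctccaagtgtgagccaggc
The 90-base window in which the coding sequences differ most is shown next, because reads from it can be told apart. It covers bases 308 to 397 of the Csf2rb coding sequence and 311 to 400 of that of Csf2rb2, and the 16 bases in capitals differ.
Csf2rb: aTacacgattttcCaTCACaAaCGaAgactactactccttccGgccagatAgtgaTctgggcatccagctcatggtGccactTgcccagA
Csf2rb2: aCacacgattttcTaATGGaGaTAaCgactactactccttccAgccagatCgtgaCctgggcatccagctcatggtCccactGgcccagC
How the study assigned reads shared by the genes is not given in the sources used here, so the sum of both genes was also tested. Csf3r on chromosome 4 (126024550 to 126044440, plus strand) shared 11.2% of its 50-base stretches with other genes, mostly with the processed pseudogene AC105061.2, and the other members shared none.

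The table holds FPKM, a level per length of transcript and per sequenced fragment, so that levels of different genes can be compared. Depth was read from the steps between low values and was 15.5 to 30.3 M fragments per sample. The level of 3 fragments was taken as the floor of a gene, below which a value means little at this depth, and only counting error enters into it. The labelled cell type was checked against marker genes. All 10 macrophage markers were well above 0 in all samples, with a mean of 6894 FPKM of Lyz2 and 1444 FPKM of Cd68 in the control group. Of the 9 Kupffer cell markers Clec4f was listed at 0 in all 15 samples and 4 more, Timd4 and Vsig4 among them, were under 1 FPKM in all of them, while Folr2, Nr1h3, Cd5l and Id3 averaged 1 FPKM or more. Of 10 hepatocyte and hepatoma markers 7 were at 0 in all samples, Alb, Ttr and Apoa1 among them, as were Cd3e and Cd3g of T cells. Some fibroblast and B cell markers were expressed. Col1a1 averaged 70.0, 102 and 124 FPKM in the control, miR-144 and miR-451a groups, and Ighm 9.30, 80.5 and 89.3 FPKM. Of these lists, 3 of 10 fibroblast and stellate markers and 4 of 6 B cell markers were under 1 FPKM in all samples.

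The control TAMs expressed 1 ligand and all 5 receptors of the family. Csf1r was highest, at 401 ± 6.75 FPKM (SD, n = 5), followed by Csf2rb2 at 208 ± 16.1, with no overlap between them. Csf2rb at 94.2 ± 11.3 and Csf2ra at 92.8 ± 10.4 FPKM came next and could not be ordered, since Csf2rb was above Csf2ra in 2 of 5 samples. Csf3r followed at 70.4 ± 5.11 FPKM, below Csf2ra in all 5 samples although the ranges of the genes overlapped by a little. Csf1 was lowest of the expressed members, at 12.5 ± 1.56 FPKM.

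In both miRNA groups the order of the receptors was a different one. Csf1r stayed first, at 691 ± 18.5 FPKM in the miR-144 group and 693 ± 30.7 FPKM in the miR-451a group. Csf2ra was next, at 71.9 ± 13 and 68.6 ± 9.46 FPKM. It exceeded Csf2rb2 in 4 of 5 samples of the miR-144 group and in all 5 of the miR-451a group. Csf2rb2, at 52.2 ± 5.35 and 49.3 ± 3.36 FPKM, overlapped with Csf3r, at 49.0 ± 2.41 and 48.3 ± 3.45 FPKM. Csf2rb came after them without overlap, at 23.0 ± 4.02 and 22.8 ± 1.35 FPKM, and Csf1 was again the lowest expressed member, at 15.7 ± 1.23 and 16.7 ± 2.86 FPKM. The plot of FPKM by sample shows the 6 expressed members.

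**Figure D1:**
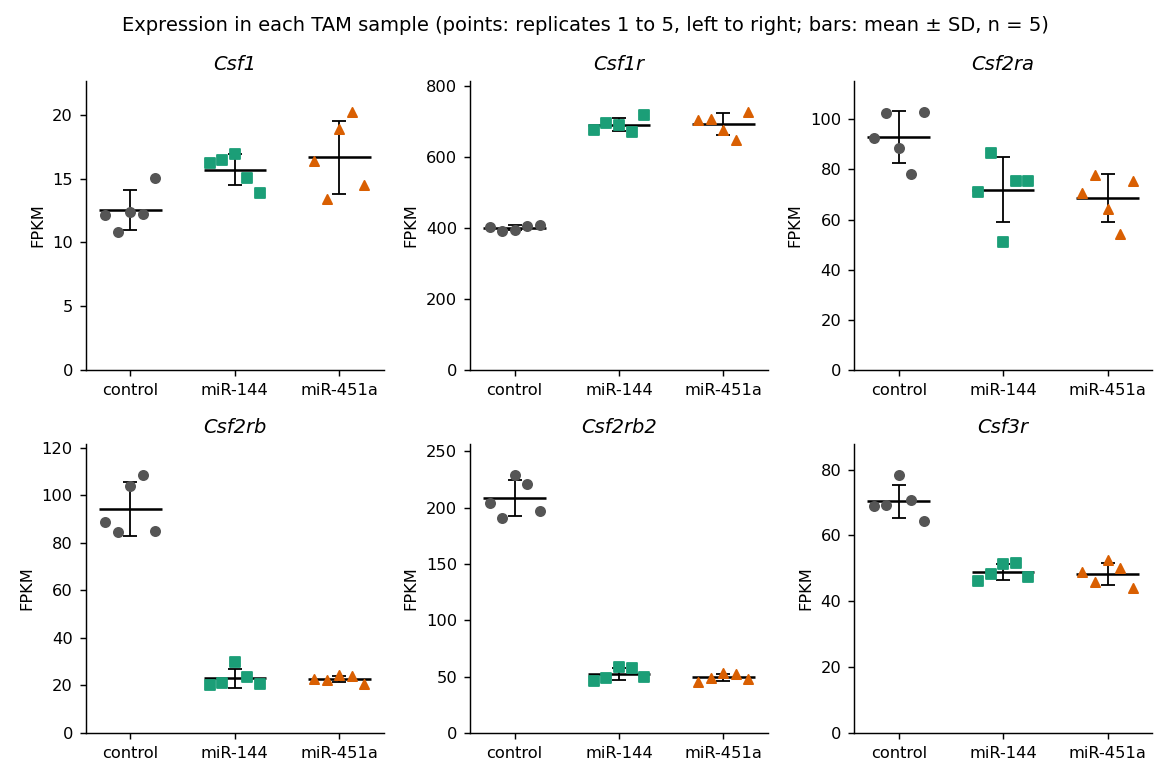
FPKM (vertical axes, starting at 0) of the 6 expressed members in each TAM sample of the control, miR-144 and miR-451a groups, with points for replicates 1 to 5 from left to right and bars for the mean ± SD (n = 5). Csf1r is around 401 FPKM in the control group and 691 and 693 FPKM in the miRNA groups, while Csf2rb and Csf2rb2 are about 4-fold lower there than in the control group.

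The comparison with control asked how the TAMs differ when the tumor cells overexpress a miRNA. In the miR-144 group 2 of the 8 members rose (Csf1 and Csf1r), 4 fell (Csf2ra, Csf2rb, Csf2rb2 and Csf3r) and 2 (Csf2 and Csf3) were not detected, by limma at an adjusted p under 0.05 over all 29540 genes above 0 in any sample. In the miR-451a group the counts were also 2 and 4. Most expressed genes changed in these comparisons, so the members' counts have to be read against a high background. Of all 29540 genes 32.8% were called in the miR-144 comparison (23.1% higher and 9.65% lower) and 34.2% in the miR-451a comparison (24.5% higher and 9.69% lower). Among the 11419 genes that, like the 6 expressed members, averaged 1 FPKM or more, 67.2% were called for miR-144 (47.1% higher and 20.1% lower) and 68.3% for miR-451a (48.1% higher and 20.3% lower). The groups did not overlap for 4 members in the miR-144 comparison and for 5 in the miR-451a comparison, where this held for 26.9% and 27.9% of all genes, and for 53.9% and 55.2% of those averaging 1 FPKM or more. Both comparisons used the same 5 control samples and are therefore not independent.

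The scale of the samples bears on the smaller changes. The median difference of genes averaging 1 FPKM or more was 0.13 for miR-144 and 0.14 for miR-451a on the log2(FPKM + 1) scale, and centring the samples on their medians took it to 0.00 in both. Of the genes called in the miR-144 comparison, 70.6% were higher with the deposited scale, 54.0% with median centring and 52.6% with quantile normalization, and for miR-451a these shares were 71.6%, 54.2% and 52.9%. Values after median centring are therefore given beside each member, as changes relative to the median gene. In bulk RNA a change in the number of cells of a type and a change in RNA per cell cannot be told apart.

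Of the ligands, Csf1 was the only one with a level above its floor. Csf1, which encodes the growth factor of the macrophage lineage, is on chromosome 3 (107741048 to 107760469, minus strand). Its FPKM was 12.1, 10.8, 12.4, 12.3 and 15.1 in control replicates 1 to 5. In the miR-144 group it was 16.2, 16.5, 16.9, 15 and 13.9, and in the miR-451a group 16.4, 13.4, 18.9, 20.2 and 14.5. The highest control sample lay within the range of both miRNA groups, so the groups overlapped. The difference from control was 0.31 on the log2(FPKM + 1) scale (SE 0.11, limma adjusted p = 0.0363) for miR-144 and 0.38 (SE 0.11, adjusted p = 0.0113) for miR-451a. Relative to the median gene the differences were 0.16 (adjusted p = 0.305) and 0.22 (adjusted p = 0.138), so that the rise of Csf1 was called with the deposited scale but not after centring. With miR-144 the call was also lost when any 1 of control replicates 1, 2, 3 or 4 or of miR-144 replicates 1, 2, 3 or 4 was left out (adjusted p of up to 0.0964). Adding the replicate number to the limma fit as a block lost it as well (adjusted p = 0.0543).

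Csf2, which encodes GM-CSF and is on chromosome 11 (54247271 to 54249667, minus strand), was listed at 0 in all 15 samples. Its floor was 0.124 to 0.241 FPKM, and the zeros do not exclude a low level under it. Csf3, also on chromosome 11 (98701263 to 98703629, plus strand), was listed at 0 in 14 samples and at 0.0279 FPKM in miR-451a replicate 5. That value is below its floor of 0.0700 to 0.137 FPKM. Receptor genes for GM-CSF and G-CSF were thus expressed in samples in which neither Csf2 nor Csf3 reached its floor.

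Csf1r rose in both miRNA groups and varied little among the samples. Its FPKM was 404, 393, 396, 406 and 408 in control replicates 1 to 5. It was 677, 698, 691, 671 and 718 in the miR-144 group, and in the miR-451a group 705, 709, 675, 650 and 727. All 10 miRNA samples were above all 5 control samples. The ratio of the mean FPKM to control was 1.72 for miR-144 and 1.73 for miR-451a, and the differences were 0.78 (SE 0.036, adjusted p = 4.22e-10) and 0.79 (SE 0.036, adjusted p = 3.75e-10) on the log2(FPKM + 1) scale. Relative to the median gene they were 0.63 (adjusted p = 7.52e-09) and 0.62 (adjusted p = 8.23e-09). The ratio of Csf1r to Csf1 was 32.4 ± 3.36 in the control group, 44.3 ± 4.37 in the miR-144 group and 42.8 ± 8.93 in the miR-451a group, and the control and miR-451a samples overlapped in it.

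Both β chain genes fell, and by far more than Csf2ra, the gene for the α chain of the GM-CSF receptor. Csf2rb, whose product is the β chain that GM-CSF, interleukin 3 and interleukin 5 share, had 88.8, 84.4, 104, 109 and 85.1 FPKM in control replicates 1 to 5. It had 20.2, 20.9, 29.8, 23.3 and 20.5 FPKM in the miR-144 group and 22.7, 22.4, 24.2, 23.9 and 20.8 FPKM in the miR-451a group. The highest miRNA sample was thus well below the lowest control sample. Mean FPKM was 4.10-fold lower for miR-144 and 4.13-fold lower for miR-451a, with differences of -2.0 (SE 0.10, adjusted p = 1.10e-09) and -1.99 (SE 0.10, adjusted p = 1.04e-09) on the log2(FPKM + 1) scale. Relative to the median gene these were -2.15 and -2.16.

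Csf2rb2, which encodes the β chain particular to interleukin 3, moved like Csf2rb. Its FPKM was 204, 191, 229, 221 and 197 in control replicates 1 to 5. In the miR-144 group it was 46.3, 49.1, 58.2, 57.4 and 49.8, and in the miR-451a group 44.9, 48.6, 52.9, 52.5 and 47.9. The groups were again far from overlapping. Mean FPKM was 4.0-fold lower for miR-144 and 4.22-fold lower for miR-451a, with differences of -1.98 (SE 0.072, adjusted p = 2.86e-11) and -2.06 (SE 0.072, adjusted p = 1.78e-11), or -2.14 and -2.22 relative to the median gene.

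Since reads can be shared between the β chain genes, their sum was tested on its own. The sum was 303 ± 26.9 FPKM in the control group, 75.1 ± 8.99 FPKM in the miR-144 group and 72.1 ± 4.37 FPKM in the miR-451a group. The difference in log2(sum + 1) was -2.0 for miR-144 and -2.05 for miR-451a, each with a two-sided exact permutation p of 0.00794, the smallest that 5 against 5 samples allow, and 0.0119 after adjustment over the 3 comparisons. The ratio of Csf2rb2 to Csf2rb was 2.22 ± 0.115 in the control group, 2.30 ± 0.203 in the miR-144 group and 2.17 ± 0.119 in the miR-451a group. The sum therefore fell about as much as each gene, while the ratio overlapped in all 3 groups.

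Csf2ra, which encodes the α chain that binds GM-CSF, is on chromosome 19 (61223957 to 61228429, minus strand). Its FPKM was 92.4, 102, 88.5, 78.0 and 103 in control replicates 1 to 5. Among the miR-144 samples it was 71.1, 86.5, 51.1, 75.5 and 75.2, and in the miR-451a group 70.7, 78.0, 64.4, 54.4 and 75.4. The highest miR-144 sample lay among the controls, whereas the highest miR-451a sample was just below the lowest control. The differences were -0.38 (SE 0.13, adjusted p = 0.0415) for miR-144 and -0.44 (SE 0.13, adjusted p = 0.0188) for miR-451a, and -0.53 (adjusted p = 0.00569) and -0.60 (adjusted p = 0.00222) relative to the median gene. The calls were marginal and depended on the scale and, for miR-144, on most of the samples. Under quantile normalization the differences were -0.35 (adjusted p = 0.0634) and -0.40 (adjusted p = 0.0305), and with values rescaled to TPM they were -0.31 (adjusted p = 0.103) and -0.36 (adjusted p = 0.0566). For miR-144 the call was lost without control replicate 1, 2, 3 or 5, without miR-144 replicate 1, 3, 4 or 5 and without miR-451a replicate 1 or 3 (differences of -0.40 to -0.26), and for miR-451a without control replicate 2 (adjusted p = 0.0502) or miR-451a replicate 4 (adjusted p = 0.0535). The ratio of Csf2ra to the summed β chains was 0.311 ± 0.0594 in the control group, 0.978 ± 0.247 in the miR-144 group and 0.958 ± 0.175 in the miR-451a group, without overlap between the control samples and the others.

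Csf3r, which encodes the G-CSF receptor, fell moderately. Its FPKM was 69.1, 69.1, 78.5, 70.8 and 64.4 in control replicates 1 to 5. For miR-144 it was 46.1, 48.3, 51.3, 51.6 and 47.5, and in the miR-451a group 48.9, 45.8, 52.5, 50.2 and 43.9. All control samples were above all others. The differences were -0.51 (SE 0.056, adjusted p = 4.05e-06) and -0.53 (SE 0.056, adjusted p = 2.49e-06), or -0.67 and -0.70 relative to the median gene. The ratio of Csf1r to Csf3r was 5.73 ± 0.463 in the control group, 14.1 ± 0.874 in the miR-144 group and 14.5 ± 1.61 in the miR-451a group.

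**Figure D2:**
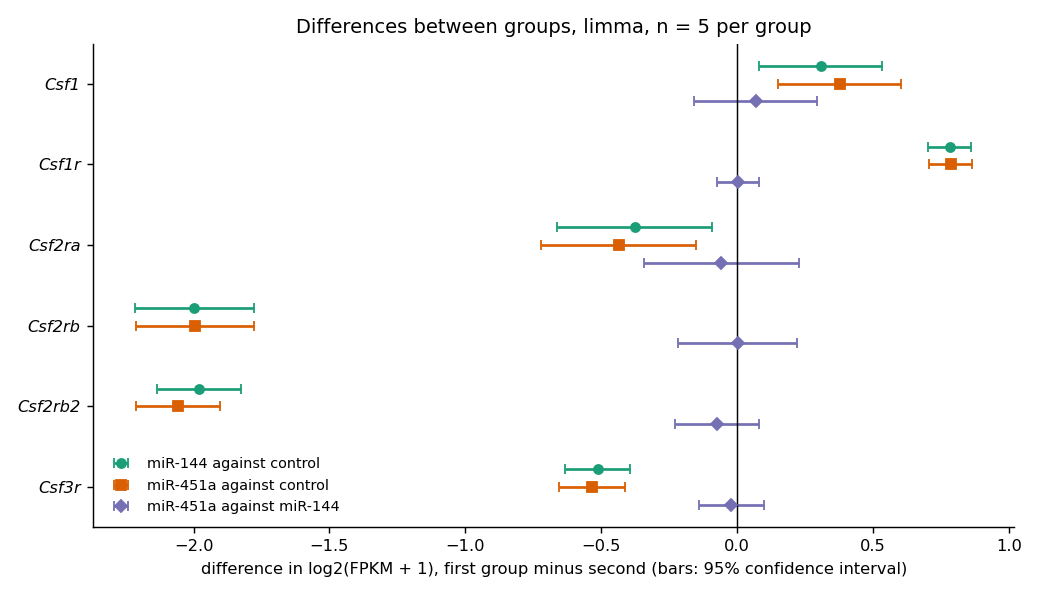
Differences in log2(FPKM + 1) of the 6 expressed members (horizontal axis, first group minus second, with 95% confidence intervals from limma, n = 5 per group) for the 3 comparisons. Csf1 and Csf1r lie above 0 and the other receptor genes below 0 in both comparisons with control, Csf2rb and Csf2rb2 near -2, while all intervals of miR-451a against miR-144 include 0.

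The makeup of the summed level of the 5 receptor genes differed between control and miRNA samples, whereas the groups overlapped in the sum itself on the deposited scale. The sum was 867 ± 22.4 FPKM in the control group, 887 ± 20.1 FPKM in the miR-144 group and 882 ± 33.5 FPKM in the miR-451a group. After centring on the median gene the sum was 900 to 985 FPKM in the control samples, 826 to 886 in the miR-144 samples and 797 to 891 in the miR-451a samples, so that the control samples were then above all others. Csf1r made up 47.1%, 46.8%, 44.2%, 45.9% and 47.6% of it in control replicates 1 to 5. In the miR-144 group its share was 78.7%, 77.3%, 78.4%, 76.4% and 78.8%, and in the miR-451a group 79.0%, 78.4%, 77.7%, 78.2% and 79.5%. The ratio of Csf1r to the summed β chains was 1.33 ± 0.118 in the control group, 9.31 ± 1.13 in the miR-144 group and 9.66 ± 0.964 in the miR-451a group. These shares and ratios do not depend on the scale of a sample.

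**Figure D3:**
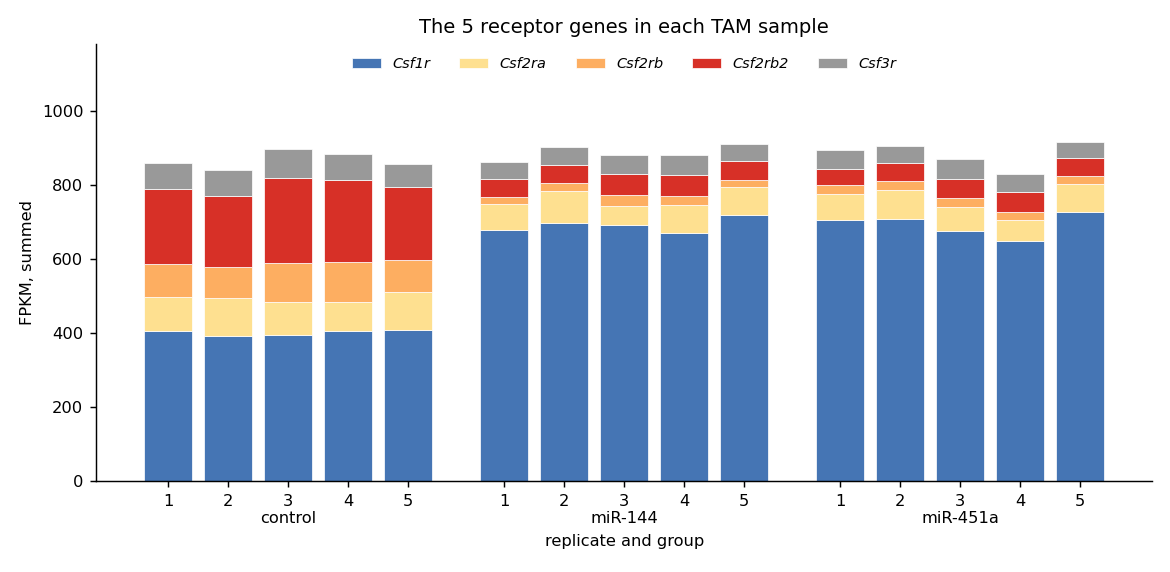
FPKM of the 5 receptor genes stacked for each of the 15 TAM samples (vertical axis, starting at 0, with replicate and group on the horizontal axis). The columns reach 830 to 915 FPKM in all groups, and Csf1r takes 44.2% to 47.6% of a column in the control group and 76.4% to 79.5% in the miRNA groups.

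The miRNA groups were also compared with each other, to see whether miR-144 and miR-451a differ in their effect. None of the members was called, with differences of 0.07 for Csf1 (95% confidence interval -0.16 to 0.30), 0.00 for Csf1r (-0.07 to 0.08), -0.06 for Csf2ra (-0.34 to 0.23), 0.00 for Csf2rb (-0.22 to 0.22), -0.08 for Csf2rb2 (-0.23 to 0.08) and -0.02 for Csf3r (-0.14 to 0.10). For the summed β chains the difference was -0.05, with an exact permutation p of 0.532. The intervals bound a difference in Csf1r more tightly than one in Csf2ra. Of all 29540 genes limma called 0 (0.0%) in this comparison, and limma without a variance trend called 1. An unadjusted limma p under 0.05 was reached by 1459 genes, where a share of 0.05 would reach it by chance. The groups did not overlap for 0.657% of all genes and for 0.849% of those averaging 1 FPKM or more. With 5 against 5 samples, a share of 0.00794 of the possible splits leaves no overlap.

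Within the groups some members varied together from sample to sample. After subtraction of the group means, Csf2rb and Csf2rb2 had a Pearson r of 0.83 (Spearman rho 0.82) over the 15 samples, which share 3 group means and, for this pair, possibly reads. Csf2rb2 and Csf3r had an r of 0.74 (rho 0.65). Csf2ra went the other way from Csf2rb, with an r of -0.82 (rho -0.67). The sample with the most Csf2rb had the least Csf2ra in the control group (replicate 4) and in the miR-144 group (replicate 3), and without these samples the r of Csf2ra and Csf2rb over the other 13 was -0.59. Depth, RNA quality and cell makeup were not tested as a source of this variation.

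**Figure D4:**
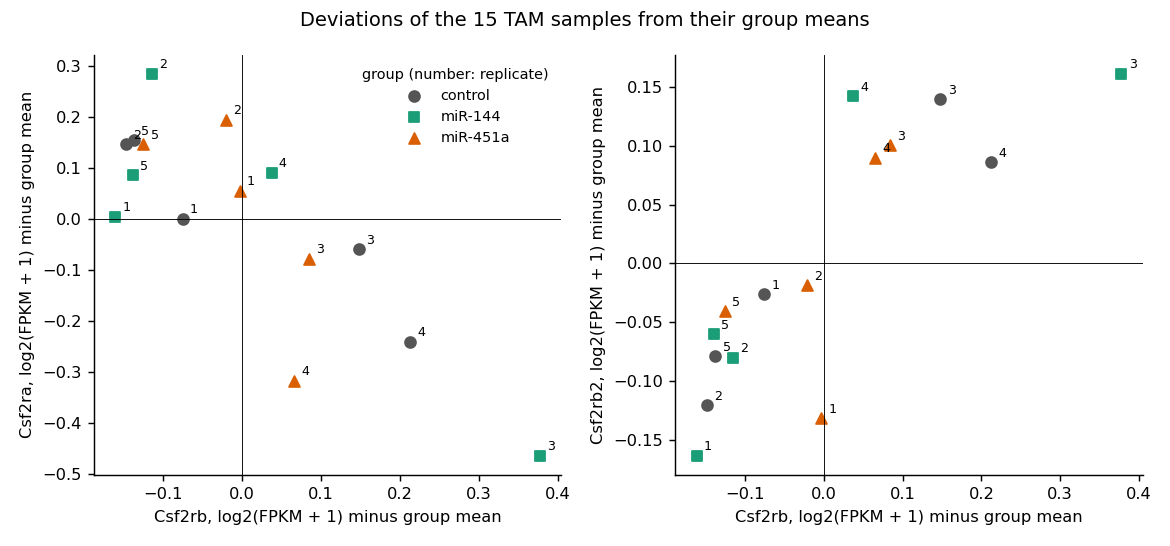
Deviation of each TAM sample from its group mean in log2(FPKM + 1), with Csf2rb on both horizontal axes and Csf2ra (left) or Csf2rb2 (right) on the vertical axis, 5 samples per group numbered by replicate. Csf2ra runs against Csf2rb, with miR-144 replicate 3 and control replicate 4 at the far end, while Csf2rb2 runs with it.

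Of the other ligands and receptor chains that work with the family, 0 were called in the fit of all samples on the deposited scale. Il34, which encodes the alternative ligand of CSF1R, had a mean of 0.721 FPKM in the control group, 0.966 in the miR-144 group and 0.939 in the miR-451a group (differences of 0.19 and 0.17, limma adjusted p = 0.0628 and 0.0901). Il3ra, which encodes the α chain that pairs with the β chains for interleukin 3, had 17.8, 17.8 and 19.6 FPKM (differences of 0.00 and 0.13, adjusted p = 1.0 and 0.0679). For Il34 the call was reached for miR-144 without control replicate 3, miR-144 replicate 5 or miR-451a replicate 1, and for miR-451a without control replicate 3, and for Il3ra it was reached for miR-451a without control replicate 1 or 3 (differences of 0.15 and 0.16). With all samples kept, Il34 was called for miR-144 under rescaling to TPM (adjusted p = 0.0305), the replicate block (0.0424) or limma without a trend (0.0484), and for miR-451a under rescaling to TPM (0.0375). Il3ra was called for miR-451a with a minimum mean of 1 or 5 FPKM (0.0381 and 0.0355) or under rescaling to TPM (0.00485). Il3 was listed at 0 in all 15 samples, and Il5 and Il5ra did not exceed 0.0728 and 0.0131 FPKM in any of them.

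Most genes on a list of those that work next to CSF1R in macrophages rose. All 22 averaged 1 FPKM or more, and 16 rose and 2 fell in the miR-144 group, where 47.1% of genes at that level rose and 20.1% fell. In the miR-451a group 15 rose and 2 fell, against 48.1% and 20.3%, and median centring gave 14 and 5. The median difference of the list was 0.66 and 0.70, where that of genes averaging 1 FPKM or more was 0.13 and 0.14. Lyn, which encodes a Src family kinase, rose from 20.2 ± 0.293 FPKM (SD, n = 5) in the control group to 62.4 ± 4.03 and 60.7 ± 2.22 FPKM (differences of 1.58 and 1.54, limma adjusted p = 4.51e-13 and 5.51e-13). Pik3cg, a catalytic subunit of phosphoinositide 3-kinase, rose from 5.64 to 14.9 and 15.6 FPKM. Cblb, which encodes a ubiquitin ligase that restrains receptor signalling, fell from 42.0 ± 1.83 to 12.8 ± 0.497 and 12.3 ± 0.825 FPKM (differences of -1.64 and -1.69, adjusted p = 1.14e-12 and 7.30e-13). The list mixes genes that promote and genes that restrain signalling. Of others known to restrain it, Cbl had 30.4, 26.1 and 26.1 FPKM in the control, miR-144 and miR-451a groups. Ptpn6 had 53.1, 124 and 123 FPKM and Inpp5d 23.2, 44.6 and 44.5 FPKM. Spred1 had 6.68, 15.8 and 15.9 FPKM, Sh2b3 13.3, 22.6 and 23.1 FPKM and Spry2 0.806, 1.74 and 1.85 FPKM.

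Of the genes of JAK2-STAT5 signalling and its feedback, of which 18 of 20 averaged 1 FPKM or more, 12 rose and 8 fell in the miR-144 group and 10 rose and 8 fell in the miR-451a group. Of all genes at that level 47.1% and 48.1% rose and 20.1% and 20.3% fell. The median difference of the list was 0.17 and 0.15, near that of those genes, and under quantile normalization 8 rose and 8 fell in each comparison. The 4 with the largest changes all fell. Cish, a feedback inhibitor that STAT5 is known to induce, was between 6.49 and 8.46 FPKM in the control samples, between 0.0700 and 0.162 FPKM in the miR-144 samples and between 0.0376 and 0.153 FPKM in the miR-451a samples. The difference was -2.90 and -2.92 (adjusted p = 2.50e-13 and 2.38e-13). Socs1, a further feedback inhibitor, fell from 4.75 ± 0.421 FPKM to 0.243 ± 0.0733 and 0.267 ± 0.108 FPKM. Pim1, a kinase gene also known as a STAT5 target, fell from 50.7 ± 5.66 to 18 ± 2.24 and 17.1 ± 2.98 FPKM, and Jak2 itself fell from 22.7 ± 1.09 to 10.1 ± 0.494 and 10.6 ± 0.536 FPKM. Genes of the list that are known as STAT5 targets went both ways. Socs2, a feedback inhibitor, fell from 0.742 to 0.175 and 0.180 FPKM, and Myc had 3.54, 2.37 and 2.60 FPKM and was called lower in both comparisons. Bcl2l1, which encodes the survival protein BCL-XL, rose from 6.14 to 11.0 and 10.8 FPKM (differences of 0.75 and 0.72, adjusted p = 1.27e-06 and 1.79e-06), and Ccnd1, which encodes cyclin D1, from 4.50 to 9.73 and 9.64 FPKM. The cytokine gene Osm rose from 1.53 to 2.18 and 2.23 FPKM and the kinase gene Pim2 from 0.595 to 1.02 and 1.01 FPKM, but neither was called under quantile normalization. Socs3, which is better known as a target of STAT3, rose from 6.35 to 12.1 and 12.9 FPKM.

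Of 15 genes known to need GM-CSF in alveolar macrophages, 10 fell and 1 rose in each comparison, 2 were not called and 2 were listed at 0 in all samples. Of all genes tested 9.65% and 9.69% fell, and 20.1% and 20.3% of those averaging 1 FPKM or more, as 7 of the 15 did. Of the 15 genes 5 were under 1 FPKM in all samples. The median difference of the 13 tested was -1.15 for miR-144 and -1.21 for miR-451a. Pparg, the transcription factor that GM-CSF induces in those cells, belonged to the genes that fell, from 37.4 FPKM to 9.55 and 9.60 FPKM. Ear2, an eosinophil-associated ribonuclease gene, fell from 35.6 ± 1.31 FPKM to 0.230 ± 0.103 and 0.339 ± 0.139 FPKM (differences of -4.90 and -4.78, adjusted p = 2.61e-15 and 3.24e-15). Bhlhe40, a transcription factor gene, fell from 62.5 ± 3.40 to 4.13 ± 0.288 and 3.94 ± 0.182 FPKM. Atp6v0d2, a subunit of the vacuolar proton pump, fell from 485 to 42.7 and 35.2 FPKM, and Fabp4, a fatty acid binding protein gene, from 119 to 22.3 and 19.8 FPKM. The gene that rose was Marco, a scavenger receptor, and it stayed under 1 FPKM in all samples.

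Myeloid transcription factors changed in both directions. Of 19 tested, 16 of which averaged 1 FPKM or more, 6 rose and 8 fell in each comparison, where 47.1% and 48.1% of genes at that level rose and 20.1% and 20.3% fell. The median difference of the list was -0.01. Spi1, which encodes PU.1, the factor on which Csf1r expression in macrophages is known to depend, had 96.5 ± 5.46 FPKM in the control group, 103 ± 6.26 in the miR-144 group and 104 ± 7.15 in the miR-451a group and was not called (adjusted p = 0.272 and 0.147). Maf rose from 7.66 to 51.1 and 56.1 FPKM and Cebpd from 1.93 to 6.13 and 6.79 FPKM. Fli1 rose from 11.6 to 26.6 FPKM in each miRNA group. Egr2 fell from 28.2 ± 12.0 to 1.94 ± 0.260 and 1.34 ± 0.493 FPKM, with 1 control sample at 6.93 FPKM, and Cebpb fell from 61.5 to 28.3 and 27.0 FPKM. Cbl, Ptpn6, Inpp5d, Spred1, Sh2b3, Spry2, Socs2, Myc, Bcl2l1, Ccnd1, Osm, Pim2, Socs3, Pparg, Marco and Spi1 are named for their known roles, after their values were seen.

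**Figure D5:**
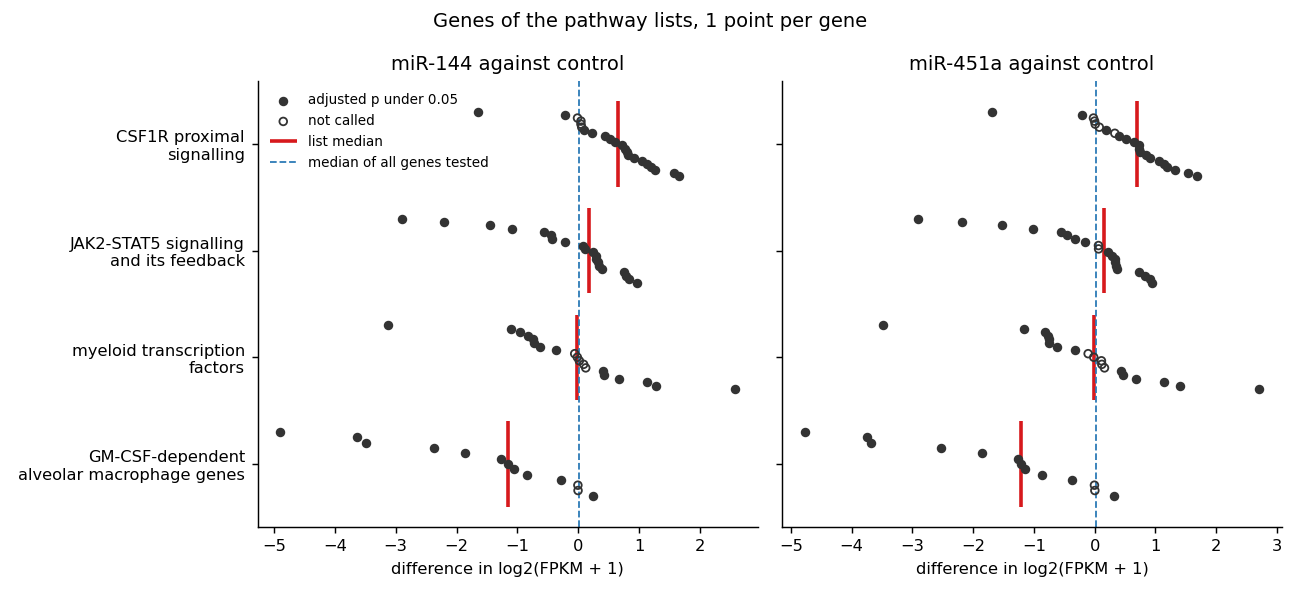
Differences in log2(FPKM + 1) from control (horizontal axes) for miR-144 (left) and miR-451a (right), with 1 point per gene in 4 lists, filled where the limma adjusted p is under 0.05, and lines for the list median (red) and the median of all genes tested (dashed). Genes next to CSF1R lie mostly to the right of 0, with medians of 0.66 and 0.70, and the GM-CSF-dependent genes mostly to the left, with medians of -1.15 and -1.21.

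Promoter sequences, from 250 bases before to 50 bases after the start of the gene, were found for 5 of the 8 members in the RefSeq table of GRCm38.p6 (Csf1, Csf2, Csf2ra, Csf2rb2 and Csf3r). Those of the 3 receptor genes that fell are printed with matches to 6 motifs in capitals. The motifs were searched on both strands as TTCNNNGAA (STAT factors), the same with 1 more base in the middle, GAGGAA (PU.1), TTGCNNAA (C/EBP), TGANTCA (AP-1) and CACGTG (E-box). Of 32851 promoters in the table, 8.30%, 6.95%, 28.3%, 10.8%, 7.81% and 7.15% held them, in that order. No match overlapped another.
Csf2rb2, chr15:78305672-78305971, minus strand: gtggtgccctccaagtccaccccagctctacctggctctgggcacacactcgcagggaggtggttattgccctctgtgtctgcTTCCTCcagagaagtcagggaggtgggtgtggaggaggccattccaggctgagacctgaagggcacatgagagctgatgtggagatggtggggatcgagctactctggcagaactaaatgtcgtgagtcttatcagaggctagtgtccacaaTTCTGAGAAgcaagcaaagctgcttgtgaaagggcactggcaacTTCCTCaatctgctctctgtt
Csf2ra, chr19:61228369-61228668, minus strand: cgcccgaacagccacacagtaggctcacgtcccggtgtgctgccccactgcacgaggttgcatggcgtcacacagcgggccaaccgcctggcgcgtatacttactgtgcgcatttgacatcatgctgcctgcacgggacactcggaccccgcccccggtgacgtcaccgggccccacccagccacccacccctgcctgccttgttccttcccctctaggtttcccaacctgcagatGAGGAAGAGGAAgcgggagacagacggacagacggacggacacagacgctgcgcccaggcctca
Csf3r, chr4:126024409-126024708, plus strand: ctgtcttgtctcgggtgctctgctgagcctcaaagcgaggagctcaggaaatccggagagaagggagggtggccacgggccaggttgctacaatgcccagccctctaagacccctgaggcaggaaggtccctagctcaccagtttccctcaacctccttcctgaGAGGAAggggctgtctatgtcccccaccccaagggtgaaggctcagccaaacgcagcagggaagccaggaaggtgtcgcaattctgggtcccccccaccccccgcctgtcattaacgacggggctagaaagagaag
The Csf2rb2 window held 1 match to the STAT motif TTCNNNGAA, starting 15 bases before the start site, and 2 matches to GAGGAA on the opposite strand. The Csf2ra window held 2 adjacent matches to GAGGAA, 14 and 8 bases before the start, and the Csf3r window held 1, starting 86 bases before it. The windows of Csf1 and Csf2 were searched too, and held no match and 1 match to TTGCNNAA, respectively. A match is a description of the sequence and was not tested as a binding site.

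The genes whose levels were most like those of each member over the 15 samples were listed by Pearson r of log2(FPKM + 1), as a description that follows the differences between groups in the first place. Ncoa3 (r = 0.997) and Klhl6 (0.997) were among the 3 genes most like Csf1r. Csf2rb2 was most like Cd274 (0.999), which encodes PD-L1, Itgax (0.998), which encodes CD11c, and Evl (0.998). Cd274 went from 55.0 to 13.3 and 12.1 FPKM and Itgax from 93.1 to 3.63 and 3.43 FPKM. Csf2rb was most like Gm2a (0.997), Smap2 (0.996) and Atp6v0a1 (0.996), and Csf3r like Srpr (0.988), Snn (0.988) and Arl1 (0.982). Csf2ra was less closely matched, by Ptdss2 (0.913), Gnl1 (0.899) and Prdx2 (0.896), as was Csf1, by Inhbb (0.964), Timp1 (0.924) and Frmd6 (0.922).

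After subtraction of the group means, which leaves the variation among samples of a group, the genes most like a member were mostly different ones. Inhbb, an activin subunit gene, was again first for Csf1 (r = 0.929), before Loxl3 and Itgb5, and Srpr and Snn stayed among the first 3 for Csf3r (0.906 and 0.888), after Nhlrc3. Csf2rb was most like Slc38a9 (0.984), Serinc1 and Mpeg1, and Csf2rb2 was most like Ptafr (0.952), Acss1 and Foxo3. Csf1r was most like Crybg1 (0.921), Trafd1 and Rnf128, and Csf2ra was most like Ddx23 (0.913), Eme2 and Card9.

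Markers of other cells are given beside the members because some of them also differed between the groups. Neutrophils carry Csf3r, which is itself on the neutrophil list, and 13 of the 16 genes of that list were under 1 FPKM in all 15 samples. Retnlg was at 0 in all of them, and the group means of Ly6g, S100a8 and S100a9 did not exceed 0.0119, 0.512 and 0.157 FPKM. The summed list was 79.8 to 97.2 FPKM in the control samples, 51.7 to 58.1 in the miR-144 samples and 49.5 to 58.7 in the miR-451a samples, and Csf3r itself and Mmp8 (15, 3.79 and 4.10 FPKM) made up most of it. Of 10 monocyte markers 7 and 8 rose in the 2 comparisons, where 23.1% and 24.5% of all genes did and 47.1% and 48.1% of those averaging 1 FPKM or more, as 5 of the 10 did. They summed to 4.99 to 6.92 FPKM in the control group, 27.3 to 36.6 in the miR-144 group and 34.0 to 37.1 in the miR-451a group. Of the 10 macrophage markers, Csf1r included, 9 and 8 rose in the 2 comparisons, where 47.1% and 48.1% of genes averaging 1 FPKM or more did. Adgre1 rose from 137 to 361 and 354 FPKM, and Itgam had 25.5 ± 12.7, 63.8 ± 13.2 and 53.4 ± 25.2 FPKM and was not called for miR-451a (adjusted p = 0.0593), whereas Cd68 fell from 1444 to 919 and 910 FPKM. The part of these cell types in the results was not tested.

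The remaining marker lists also differed between the control and the miRNA samples in part. Kupffer cell markers summed to 43.3 to 53.7 FPKM in the control group and 54.4 to 84.0 FPKM in the miRNA groups. Cd5l, a secreted macrophage protein gene on that list, rose from 3.40 to 29.8 and 27.1 FPKM (adjusted p = 2.36e-05 and 3.52e-05) and Id3 from 2.30 to 6.59 and 7.14 FPKM, Nr1h3 fell from 18.4 to 8.45 and 7.46 FPKM, and Folr2 had 23.7, 23.3 and 21.4 FPKM and was not called. Dendritic cell markers summed to 15.6 to 18.9 FPKM in the control group and 27.2 to 33.0 FPKM in the miRNA groups. Of these 10 genes 8 were under 1 FPKM in all samples. Wdfy4 (12.6, 19.5 and 20.0 FPKM) and Fscn1 (3.82, 9.30 and 10.4 FPKM) made up most of the sum. Fibroblast and stellate markers summed to 131 to 168 FPKM in the control group and 217 to 325 FPKM in the miRNA groups. Endothelial markers summed to 45.7 to 50.4 FPKM in the control group and 10.9 to 13.7 FPKM in the miRNA groups, and Vwf carried this fall, from 43.5 to 7.10 and 6.94 FPKM. Kdr, on the same list, rose from 2.80 to 3.84 and 4.07 FPKM (adjusted p = 0.00717 and 0.00231), and of the 8 genes 2 rose and 2 fell for miR-144 and 1 rose and 1 fell for miR-451a, where 23.1% and 24.5% of all genes rose and 9.65% and 9.69% fell. B cell markers summed to 8.48 to 11.1 FPKM in the control group and 75.8 to 100.1 FPKM in the miRNA groups, most of it Ighm. Cd79b rose with it, from 0.185 to 1.15 and 1.38 FPKM (adjusted p = 1.67e-07 and 3.08e-08), while Ms4a1 was near 0. T and NK cell markers summed to 1.53 to 1.92 FPKM in the control group and 5.45 to 9.57 FPKM in the miRNA groups, most of it Cd4, which rose from 1.32 to 6.86 and 7.16 FPKM (adjusted p = 2.79e-07 and 1.97e-07). Klrb1c, on the same list, fell from 0.319 to 0.113 and 0.0721 FPKM (limma adjusted p = 0.000546 and 8.57e-05). Of the 10 genes 1 rose and 1 fell in each comparison, against the shares of all genes given above. Mast cell and basophil markers summed to 0.198 to 0.478 FPKM in the control group and 0.612 to 1.78 FPKM in the miRNA groups, also without overlap, and hepatocyte and hepatoma markers to at most 1.79 FPKM in any sample, with overlap. Their part in the results was not tested either.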

How the data were processed

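RNA-seq of TAMs sorted from orthotopic Hepa1-6 tumors was analysed in 15 samples, 5 per group, with groups and replicate numbers taken from the sample labels. The values were deposited by the authors as FPKM, already scaled by depth and transcript length, from Illumina HiSeq reads. The submitters' processing notes name FastQC 0.11.2, STAR and StringTie, and the genome build and annotation are not given in the sources used here. The legend of the study gives 3 samples per group for its RNA-seq, while 5 were deposited and used here.

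The 8 members, the lists of genes and the tests were chosen with earlier results of these data known. All comparisons used limma 3.58.1 (R 4.3.3) on log2(FPKM + 1), fitting the 3 group means together with a trend of the variance on the mean, and p-values were adjusted by Benjamini-Hochberg over 29540 genes that were above 0 somewhere. The limma step was first tested on simulated data. FPKM of low values multiplied by length fell on steps of 1 fragment in 42.8% to 55.8% of cases (tolerance 0.05 of a step, where 10% would by an even spread), so counts were not recovered and no count test was run. Csf2rb and Csf2rb2 were summed and compared with two-sided exact permutation tests over 252 splits. Annotation came from GENCODE M21 (99.7% of identifiers matched), and sequences came from RefSeq tables of GRCm38.p6 or from M21 transcripts.

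Besides the members, the text names in 5 pathway lists up to 4 called genes with the largest differences per comparison, the partners Il34, Il3ra and Il5ra, the 3 genes most like each expressed member and markers from 11 lists. Some genes that this rule picks are not reported here. Alternatives (for the receptor sum, chosen after seeing the data) were a pseudocount of 0.1, quantile normalization, median centring, rescaling to TPM, minimum means of 1 and 5 FPKM, limma without a trend, the replicate block, a fit of only the groups compared, a minimum log2 difference of 1 and leaving out each sample in turn.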

Additional observations from a re-analysis of the deposited data

Results flagged for a closer look

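In 29 sets of 5 samples (the members, the summed β chain genes and the partners Il34, Il3ra and Il5ra, where values differed), 3 samples stood apart from the rest of their group by Dixon's criterion (a gap of over 0.71 of the range), where chance flags about 1 in 20 sets. Csf3 was at 0.0279 FPKM in miR-451a replicate 5 and at 0 in the other samples of the group, and Il5ra was at 0.0131 FPKM in miR-451a replicate 2 and at 0 in the others, so that both rest on a single value at the lower end of detection. With the others at 0 the gap is the whole range whatever the value. The flag was thus fixed in advance for Csf3 and Il5ra, and the chance rate does not apply to them. Il34 was at 1.18 FPKM in miR-451a replicate 1, with the next sample at 0.920 FPKM and the lowest at 0.855 FPKM. No sample of an expressed member of the family stood apart by this criterion, including miR-144 replicate 3, whose Csf2ra of 51.1 FPKM was the lowest of its group (gap of 0.564 of the range).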

How the results depend on the processing

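Csf1r, Csf2rb, Csf2rb2 and Csf3r kept their direction and their calls in both comparisons with control under all alternatives, apart from the minimum log2 difference of 1. Under that minimum Csf2rb and Csf2rb2 alone remained (2 lower and 0 higher in each comparison), since the differences of Csf1 (0.31 and 0.38), Csf1r (0.78 and 0.79), Csf2ra (-0.38 and -0.44) and Csf3r (-0.51 and -0.53) are smaller. No called difference of a member changed direction. The comparison of miR-451a with miR-144 called 0 members throughout, with small differences on either side of 0 for most members. The rise of Csf1 was not called under median centring (0.16 and 0.22) or quantile normalization (0.22 and 0.29), which left 1 member higher in each comparison. The fall of Csf2ra was not called for miR-144 under quantile normalization (-0.35), rescaling to TPM (-0.31) or the fit of only the 2 groups compared (-0.38), and not for miR-451a under rescaling to TPM (-0.36). Rescaling to TPM moved the median difference of genes averaging 1 FPKM or more to 0.22 and 0.23. With each sample left out in turn, Csf1 ranged from 0.26 to 0.37 for miR-144 (1 to 2 members higher), where the values without a call were 0.26 to 0.32, and Csf2ra from -0.45 to -0.26 for miR-144 (-0.40 to -0.26 without a call) and from -0.50 to -0.36 for miR-451a (-0.40 and -0.36 without a call). The cause of these losses was not tested. For the sum of the 5 receptor genes, a choice made after seeing the data, median centring moved the means from 867, 887 and 882 FPKM to 935, 858 and 846 FPKM in the control, miR-144 and miR-451a groups, which turned the order of control and miRNA groups, while quantile normalization left the groups overlapping.

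Whether the replicate numbers pair the samples is not settled by the values. Deviations of samples with the same number had a mean correlation of -0.01 between control and miR-144, 0.14 between control and miR-451a and 0.10 between miR-144 and miR-451a. For samples with different numbers the means were 0.003, -0.03 and -0.03, in that order. The lowest correlation of a pair with the same number was -0.13, 0.07 and -0.15. With the replicate block the rise of Csf1 for miR-144 (0.31) had an adjusted p of 0.0543, which left 1 member higher. For the summed β chain genes the replicate block gave the same differences (-2.0 and -2.05) with an exact sign-flip p of 0.0625 (0.0938 adjusted), the smallest that 5 pairs allow. The block changed no other call of a member.

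In the lists, a minimum log2 difference of 1 left 6 higher and 1 lower in CSF1R proximal signalling, 0 and 4 in JAK2-STAT5 signalling, 3 and 2 among the myeloid transcription factors and 0 higher among the GM-CSF-dependent genes, in each comparison. Without genes averaging under 1 or 5 FPKM, 0 GM-CSF-dependent genes were higher, and at 5 FPKM 4 JAK2-STAT5 genes were lower, because fewer genes were tested. Median centring gave 5 lower genes in CSF1R proximal signalling for miR-451a. Of the partners, 1 was higher for miR-144 under rescaling to TPM, the replicate block or limma without a trend (0 to 1 with a sample left out), and for miR-451a 1 was higher with either minimum mean and 2 under rescaling to TPM (0 to 2 with a sample left out). How depth bears on the low values of Csf2, Csf3, Il3 and Il5 was not tested.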
